A study of Rattus norvegicus with 8 samples.

Results

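Elastic fibers and the fibrillin microfibrils that scaffold them were followed through 10 genes in the right Achilles tendon of rats: *Eln*, *Fbn1*, *Fbn2*, *Fbln1*, *Fbln2*, *Fbln5*, *Mfap4*, *Mfap5*, *Efemp2*, and *Emilin1*. The genes were taken by symbol, and all 10 were present among the 32883 genes of the count table. Their reads were compared between 4 wild-type male Sprague-Dawley (SD) rats, 8 to 10 weeks old, killed 12 hours after 1 hour of uphill treadmill running (12 h p.r.) and 4 wild-type SD rats of the same age range that rested in cages and were killed at the same time (NC). Each library came from the polyadenylated mRNA of bulk tendon tissue of 1 rat. A smaller number of cells of a type and less RNA per cell therefore cannot be told apart. How much of the tendon was taken is not given in the sources used here. Running was prompted by airflow and, for rats that left the belt, by a mild electric stimulus, so the groups differed in handling as well as in running. The comparison asks which transcripts of the tendon differ from rest 12 hours after a single run, and its p values measure the spread between these rats.

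An elastic fiber is a core of cross-linked elastin, laid down on a bundle of microfibrils made mainly of fibrillins. Fibulins and microfibril-associated proteins join both parts, guide elastin onto the microfibrils, and bring in the lysyl oxidases that cross-link it. In tendon the collagen fascicles bear most of the load, while elastic fibers lie around the cells and between the fascicles, where they help the tissue recoil and let fascicles slide. Elastic fibers are also a main component of the walls of arteries, which run through the tissue around the tendon.

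Total counts ran from 7350509 to 12951397 reads per rat, and the running rats were sequenced less deeply than most NC rats. The tenocyte markers *Tnmd*, *Scx*, *Mkx*, *Col1a1*, *Col1a2*, *Fmod*, *Comp*, and *Thbs4* had reads in every rat and summed to 16270 to 48540 CPM (counts scaled to the TMM-adjusted library size) at 12 h p.r. and 27360 to 40830 CPM in the NC group. The rat labelled 12 h p.r. replicate 3 stood apart, with 9 skeletal muscle markers summing to 62170 CPM against at most 11060 CPM in any other rat, and with the lowest tenocyte sum. NC replicate 3 and 12 h p.r. replicate 1 stood apart in cartilage and bone markers, which summed to 2774 and 1031 CPM and had mean log2 levels of 7.62 and 6.34 against 1.66 to 4.29 in the other 6 rats. Their part in the results below was not tested beyond the values without these rats.

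The 10 genes spanned a wide range, from abundant microfibril and elastin transcripts to genes with a handful of reads. Levels of different genes are given in the authors' FPKM, which divides reads by gene length, as the mean ± SD of all 8 rats. *Mfap5*, whose small glycoprotein decorates microfibrils, was at 156.5 ± 26.5 FPKM (SD, n = 8), and *Eln*, the elastin gene, was at 144.5 ± 31.4 FPKM (SD, n = 8). These genes did not differ beyond their spread, since *Mfap5* was above *Eln* in 6 of 8 rats (2-sided exact sign-flip permutation test within rats, p = 0.398 adjusted over the 9 neighboring pairs). Together they gave 31.5 and 29.1% of the summed FPKM of the 10 genes. *Fbn1*, the main fibrillin of adult tissue, followed at 63.2 ± 6.43 FPKM (SD, n = 8). It was below *Eln* and above *Fbln2* in 8 of 8 rats (exact permutation test, adjusted p = 0.0176 for each pair, from an unadjusted p of 0.00781, the smallest that 8 rats allow).

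*Fbln2* at 44.9 ± 6.61 FPKM (SD, n = 8) and *Efemp2*, which encodes fibulin-4, at 39.2 ± 7.06 FPKM (SD, n = 8) did not differ beyond their spread (exact permutation test, adjusted p = 0.15). *Efemp2* was in turn above *Fbln5* in 8 of 8 rats, with *Fbln5* at 21.1 ± 3.82 FPKM (SD, n = 8). *Fbln5* and *Fbln1* at 16.0 ± 4.42 FPKM (SD, n = 8) were again not separated (exact permutation test, adjusted p = 0.0703), while *Fbln1* was above *Emilin1* in 7 of 8 rats (exact permutation test, adjusted p = 0.0281). *Emilin1*, a glycoprotein of the border between elastin and microfibrils, was at 10.7 ± 2.85 FPKM (SD, n = 8).

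Below *Emilin1* the order dropped by a factor of 51.1 to *Fbn2*, the fibrillin gene known best for its use in the embryo, at 0.209 ± 0.121 FPKM (SD, n = 8). *Fbn2* was read 131 times over the 8 rats, between 2 and 33 times per rat, and *Fbn1* was read 50765 times. *Mfap4*, which encodes a fibrinogen-domain protein of microfibrils, was lowest at 0.0573 ± 0.0549 FPKM (SD, n = 8), with 8 reads in all. Whether the gene model used for counting misses *Mfap4* reads was not tested, so its place describes the counts and not necessarily the transcript. It had 0 reads in 12 h p.r. replicates 1 and 2 and in NC replicate 4, and a count of 0 allows up to 0.388, 0.395, and 0.255 CPM in these rats (3 reads, counting error only). The order of all 10 genes was the same with the median of the NC rats alone and with TMM factors in place of the authors' scaling. By the means of the running rats alone, a check chosen after seeing the data, *Eln* at 159.0 FPKM came before *Mfap5* at 140.9 FPKM and the other members kept their places. *Eln* was above *Mfap5* in 2 of 4 running rats and in 0 of 4 NC rats.

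**Figure D1:**
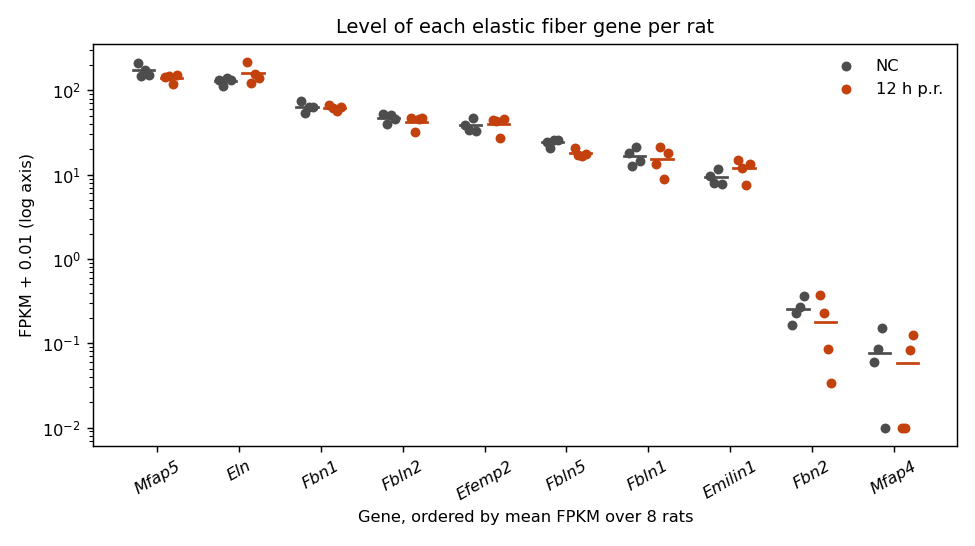
FPKM of the 10 genes in each rat, on a log axis after adding 0.01, with gray points for the 4 NC rats, orange points for the 4 12 h p.r. rats, and a bar at each group mean. The 8 genes from *Mfap5* to *Emilin1* lie between 7.51 and 215.5 FPKM in every rat, while *Fbn2* and *Mfap4* stay at or below 0.36 FPKM.

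In the comparison of 12 h p.r. with NC, 9 of the 10 genes had enough reads to be tested, and *Mfap4* did not. *Fbln5* was at 45.3 CPM after running against 60.1 CPM at rest and *Mfap5* at 154 against 188 CPM, while *Eln* and *Emilin1* had the higher means after running. *Fbn1*, *Efemp2*, *Fbln1*, and *Fbln2* had group means that lay within their SDs of each other. By the quasi-likelihood test of edgeR, adjusted by Benjamini-Hochberg over 13937 tested genes, 0 of the 9 genes had an adjusted p value under 0.05 (0.00718% of all genes did), and 0 did by DESeq2 or limma. At an unadjusted p value under 0.05, 1 of the 9 passed, *Fbln5* (11.1%), against 9.51% of all genes tested in either direction and 4.08% in the lower direction, so the share was close to the background. The median log2 fold change of the 9 genes was −0.09, with 3 above and 6 below 0, and that of all genes tested was 0.02. In 0 of the 9 genes were the groups fully separate, as they were in 6.06% of all genes tested (2.55% with every running rat below every NC rat and 3.52% with every running rat above).

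Elastin and the fibrillins, the structural core, are described first. *Eln* (ENSRNOG00000001469) was at 783, 446, 563, and 508 CPM in 12 h p.r. replicates 1 to 4 and at 482, 408, 504, and 477 CPM in NC replicates 1 to 4. The NC rats lay close together, 3 of the 4 running rats were above all of them, and replicate 1 was the highest. The running rats averaged 575 ± 147 CPM and the NC rats 468 ± 41.4 CPM (SD, n = 4 each), which is a log2 fold change of 0.30 with a standard error (SE) of 0.18 (edgeR adjusted p = 0.642, 2-sided exact permutation p = 0.2). Without 12 h p.r. replicate 1, which was also high in cartilage and bone markers, the log2 fold change of *Eln* was 0.11. Without 12 h p.r. replicate 2 it was 0.40 (unadjusted p = 0.0522 by edgeR), the highest of the fits without 1 rat. The 8 smooth muscle and pericyte markers all had log2 fold changes above 0. With their score as a covariate, an alternative chosen after seeing the data, the value of *Eln* was 0.20 (unadjusted p = 0.387 by edgeR). The list includes *Des*, and the score was highest in the rat with skeletal muscle transcripts, 12 h p.r. replicate 3 (8.54 against 7.66 to 8.13 in the others).

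*Fbn1* (ENSRNOG00000007302) was at 678, 611, 568, and 633 CPM in the running rats and at 748, 540, 624, and 627 CPM in the NC rats. The running rats fell inside the range of the NC rats, and *Fbn1* varied least among the members, with a coefficient of variation over all rats of 10.2%. Its log2 fold change was −0.03 (SE 0.13, edgeR adjusted p = 0.963), an estimated ratio of 0.98 with a 95% interval from 0.796 to 1.21.

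*Fbn2* (ENSRNOG00000043219) was at 2.85, 1.71, 0.595, and 0.188 CPM after running and at 1.2, 1.72, 2.04, and 2.8 CPM at rest. The highest and the lowest rat were both running rats, and the lowest value rests on 2 reads. The log2 fold change of −0.59 (SE 0.64, edgeR adjusted p = 0.799) was smaller than its standard error, so no difference was detected. The parts of low read number and of spread between rats in this error were not tested. It was −1.28 without 12 h p.r. replicate 1 and −0.19 without 12 h p.r. replicate 4.

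The microfibril-associated glycoprotein *Mfap5* (ENSRNOG00000015505), which binds fibrillin, was at 159, 161, 131, and 167 CPM in the running rats and at 229, 162, 192, and 167 CPM in the NC rats. Of the running rats 3 were below every NC rat, and NC replicate 1 was the highest of all. The means of 154 ± 15.7 and 188 ± 30.4 CPM (SD, n = 4 each) gave a log2 fold change of −0.28 (SE 0.14, edgeR adjusted p = 0.552, 2-sided exact permutation p = 0.0571). The value was −0.17 without NC replicate 1 and −0.35 without NC replicate 2 (unadjusted p = 0.0404 by edgeR). With the smooth muscle score as a covariate it was −0.12. *Mfap4* (ENSRNOG00000002382) had 0, 0, 1, and 2 reads after running and 1, 1, 3, and 0 reads at rest, at or below 3 reads in every rat, so no fold change is given.

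*Fbln5* (ENSRNOG00000050539) encodes fibulin-5, which binds elastin and cell-surface integrins and is needed for elastic fiber assembly in mice. It was at 52.7, 42.8, 41.5, and 44.3 CPM in 12 h p.r. replicates 1 to 4 and at 60.7, 51.1, 63.6, and 64.9 CPM in NC replicates 1 to 4. Of the 4 running rats 3 were below every NC rat, and the exception, replicate 1, was above NC replicate 2 alone. The running rats averaged 45.3 ± 5.02 CPM and the NC rats 60.1 ± 6.22 CPM (SD, n = 4 each), which is a log2 fold change of −0.41 (SE 0.11, unadjusted p = 0.00474, edgeR adjusted p = 0.429). The estimated ratio was 0.754 with a 95% interval from 0.635 to 0.895, and the 2-sided exact permutation p was 0.0571. DESeq2 gave −0.42 with an adjusted p of 0.112. In the 8 fits without 1 rat, the value of *Fbln5* lay between −0.49 and −0.37 with a highest unadjusted p of 0.0148 by edgeR. Over all alternatives the adjusted p ran from 0.112 to 0.773.

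The sums of several marker lists are given beside the *Fbln5* value, and their part in it was not tested except where a value is given. Leukocyte markers summed to 493.7 to 2417 CPM after running and 721.5 to 3555 CPM at rest, with all 6 log2 fold changes below 0. Interstitial fibroblast markers summed to 852 to 1130 CPM after running and 894 to 1449 CPM at rest, and 4 of 6 were below 0. Smooth muscle and pericyte markers summed to 2340 to 4405 CPM and 2124 to 2591 CPM, with all 8 log2 fold changes above 0, and the highest sum came from the rat with skeletal muscle transcripts, in which *Des* was at 1655 CPM. Endothelial markers summed to 881 to 1072 CPM and 948 to 1088 CPM, and adipocyte markers to 1098 to 2969 CPM and 1869 to 3359 CPM. With the skeletal muscle score as a covariate, the log2 fold change of *Fbln5* was −0.39 (unadjusted p = 0.00636 by edgeR), and with the smooth muscle score it was −0.40 (unadjusted p = 0.0189 by edgeR).

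The upstream sequences are shown for *Fbln5* and *Mfap5*, the members with the smallest p values, and for *Fbn1*, the member that varied least. They are the 250 bases before the annotated start in RefSeq (GRCr8), 5′ to 3′ on the strand of the gene, and 6 of the 10 members had an entry. The *Fbln5* sequence is chr6:126742707-126742956 on the minus strand, that of *Mfap5* is chr4:157399669-157399918 on the plus strand, and that of *Fbn1* is chr3:133203391-133203640 on the minus strand. Capitals mark matches on either strand to the GC box (GGGCGG), the CCAAT box (CCAAT), or the TATA box (TATAAA).
Fbln5: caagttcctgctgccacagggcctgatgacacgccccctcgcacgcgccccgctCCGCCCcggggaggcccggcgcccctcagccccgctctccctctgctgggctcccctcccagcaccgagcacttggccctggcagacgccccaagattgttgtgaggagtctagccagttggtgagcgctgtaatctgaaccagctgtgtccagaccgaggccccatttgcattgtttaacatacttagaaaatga
Mfap5: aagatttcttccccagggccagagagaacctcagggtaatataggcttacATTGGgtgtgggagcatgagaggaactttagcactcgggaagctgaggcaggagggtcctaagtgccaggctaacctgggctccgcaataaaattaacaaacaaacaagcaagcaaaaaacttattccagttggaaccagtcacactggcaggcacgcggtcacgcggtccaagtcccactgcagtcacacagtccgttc
Fbn1: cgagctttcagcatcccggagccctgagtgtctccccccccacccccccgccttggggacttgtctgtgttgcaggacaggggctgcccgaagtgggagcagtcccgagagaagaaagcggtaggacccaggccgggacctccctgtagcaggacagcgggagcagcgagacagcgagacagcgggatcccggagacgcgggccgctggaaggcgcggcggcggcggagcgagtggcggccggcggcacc
The *Fbln5* sequence held 1 GC box, the *Mfap5* sequence 1 CCAAT box, and the *Fbn1* sequence neither, and no TATA box was present in any of the 6 members with an entry. Of all 33469 upstream sequences of this length, 12.9% held TATAAA, 30.5% the GC box, and 34.0% the CCAAT box. The E-box CANNTG, not capitalized, occurred 4 times for *Fbln5*, 1 time for *Mfap5*, and 0 times for *Fbn1*, and 65.5% of all sequences held it. No matches of different motifs overlapped in these sequences. The share of G and C was 63.2% for *Fbln5*, 51.6% for *Mfap5*, and 71.2% for *Fbn1*, against a median of 51.2%. These matches describe the sequences and carry no information about which factors were bound.

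*Efemp2* (ENSRNOG00000020587), whose product fibulin-4 links lysyl oxidase to tropoelastin, was at 70.2, 68.0, 43.1, and 71.6 CPM after running and at 61.8, 53.7, 75.1, and 52.3 CPM at rest. Replicate 3 of the running rats was the lowest of all 8 rats, and the other running rats were above 3 of the 4 NC rats. The log2 fold change was 0.06 (SE 0.18, edgeR adjusted p = 0.941). It was 0.20 without 12 h p.r. replicate 3 (unadjusted p = 0.162 by edgeR) and −0.0096 without 12 h p.r. replicate 4.

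*Emilin1* (ENSRNOG00000008246) was at 58.1, 46.9, 28.9, and 52.3 CPM after running and at 37.0, 31.0, 45.2, and 29.6 CPM at rest. The pattern was like that of *Efemp2*, with 3 running rats above every NC rat and replicate 3 below them all. The means of 46.6 ± 12.6 and 35.7 ± 7.12 CPM (SD, n = 4 each) gave a log2 fold change of 0.38 (SE 0.22, edgeR adjusted p = 0.619). Without 12 h p.r. replicate 3 the log2 fold change was 0.55 (unadjusted p = 0.00686, edgeR adjusted p = 0.373). It was 0.52 without NC replicate 3 (unadjusted p = 0.0509 by edgeR) and 0.26 without 12 h p.r. replicate 1 (unadjusted p = 0.281 by edgeR). The *Emilin1* value thus moved in both directions with single rats. With the smooth muscle score as a covariate the log2 fold change of *Emilin1* was 0.63 (unadjusted p = 0.0177 by edgeR). That score was highest in 12 h p.r. replicate 3, so this fit is not separate from the one without that rat. Of the 8 tenocyte markers 5 had log2 fold changes above 0, and 3 of them an unadjusted p under 0.05 in the higher direction, where 5.44% of all genes tested did. Their part in the *Emilin1* and *Efemp2* values was not tested.

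The fibulins *Fbln1* (ENSRNOG00000014137) and *Fbln2* (ENSRNOG00000007338) bind elastin and basement membrane proteins. *Fbln1* was at 43.2, 69.7, 28.8, and 59.1 CPM after running and at 57.8, 40.6, 68.3, and 46.7 CPM at rest, so that the running rats held both the highest and the lowest value. *Fbln2* was at 204, 137, 196, and 201 CPM after running and at 225, 171, 223, and 197 CPM at rest, with replicate 2 of the running rats below all others. The log2 fold changes were −0.09 (SE 0.27, edgeR adjusted p = 0.937) for *Fbln1* and −0.14 (SE 0.15, edgeR adjusted p = 0.792) for *Fbln2*. The value of *Fbln1* was 0.10 without 12 h p.r. replicate 3 and −0.29 without 12 h p.r. replicate 2. That of *Fbln2* was −0.03 without 12 h p.r. replicate 2 and −0.22 without NC replicate 2.

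**Figure D2:**
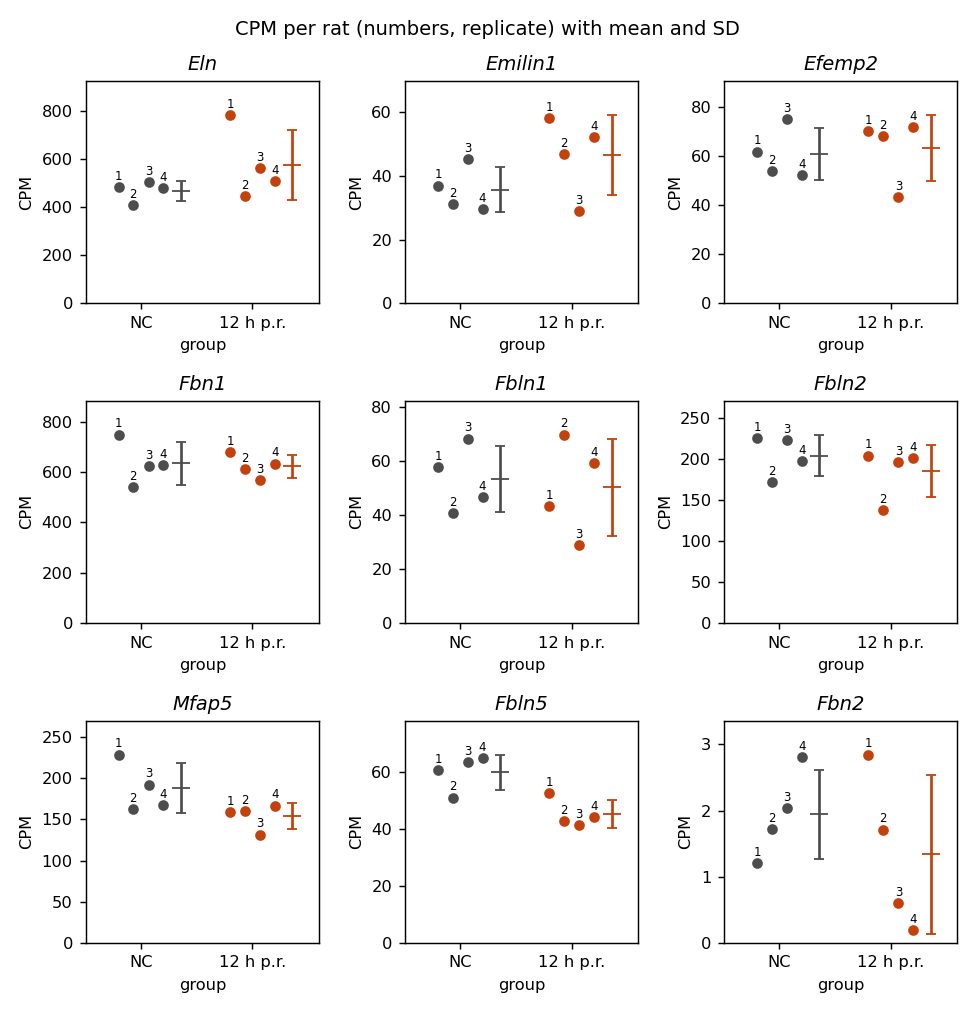
CPM of the 9 genes tested in each rat, with the replicate number above each point and the group mean and SD beside the points. In *Fbln5* and *Mfap5*, 3 of 4 running rats lie below every NC rat, in *Eln* and *Emilin1* 3 of 4 lie above every NC rat, and no gene shows fully separate groups.

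Ratios of 2 members in the same rat do not depend on how libraries are scaled, and 8 of them were compared between the groups. The ratio of *Fbln5* to *Eln* FPKM was 0.0972, 0.139, 0.107, and 0.126 in the running rats and 0.182, 0.181, 0.182, and 0.197 in the NC rats. Every running rat was below every NC rat, and the NC rats hardly differed. The difference was −0.67 on the log2(FPKM + 0.1) scale, with an exact 2-sided permutation p of 0.0286, the smallest that 4 rats against 4 allow, and an adjusted p of 0.114 over the 8 ratios. Without 1 rat at a time, this difference stayed between −0.76 and −0.59.

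The ratio of *Mfap5* to *Fbn1* was 2.13, 2.39, 2.1, and 2.4 after running and 2.78, 2.74, 2.8, and 2.43 at rest. The groups were again separate, by a narrow margin between 12 h p.r. replicate 4 and NC replicate 4. The log2 difference was −0.25 (exact permutation p = 0.0286, adjusted p = 0.114) and ran from −0.30 to −0.22 without 1 rat at a time. The other 6 ratios overlapped between the groups. Over all pairs of the 13937 genes tested, 5.23% had ratios that separated the groups, and 5 of the 36 pairs of the 9 members tested did (13.9%), pairs that share genes and are not independent. *Eln* to *Fbn1* ran from 2.01 to 3.19 after running and from 1.78 to 2.23 at rest (log2 difference 0.29, exact permutation adjusted p = 0.533), and *Emilin1* to *Eln* from 0.048 to 0.0984 and from 0.0579 to 0.084 (log2 difference 0.09, exact permutation adjusted p = 0.914). *Efemp2* to *Eln* had a log2 difference of −0.23 and *Fbln2* to *Fbln1* of −0.02. *Fbn2* to *Fbn1* had one of −0.49, or −0.07 with a pseudocount of 1 FPKM, so its size depends on the pseudocount. *Mfap4* to *Fbn1* had one of −0.16, with reads too few to read a difference from. With 8 ratios, at least 5 would have had to reach the smallest p for any adjusted p to fall under 0.05.

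**Figure D3:**
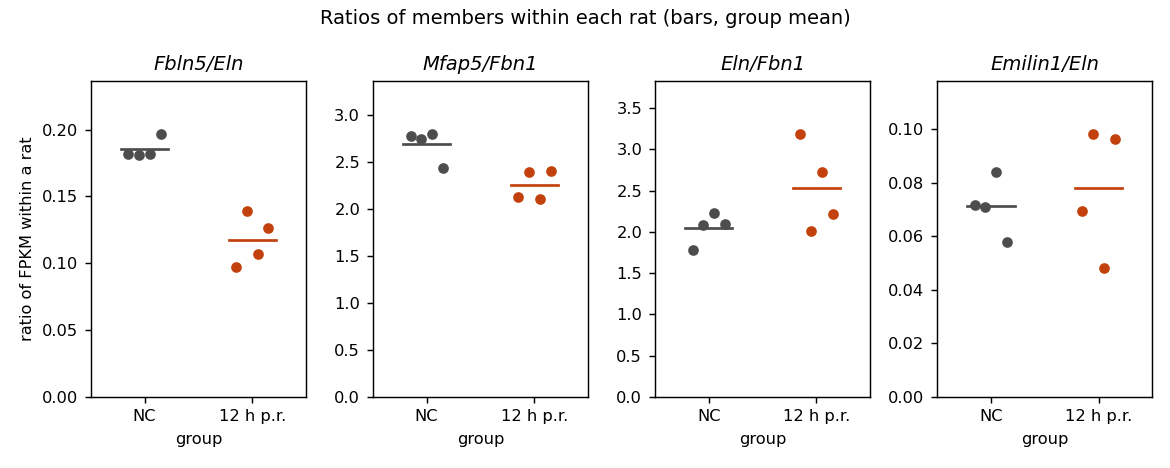
Ratio of the FPKM of 2 members within each rat for 4 of the 8 ratios, with gray points for NC, orange points for 12 h p.r., and a bar at each group mean. The *Fbln5*/*Eln* values are 0.181 to 0.197 in the NC rats and 0.0972 to 0.139 in the running rats, while the *Eln*/*Fbn1* and *Emilin1*/*Eln* values of the groups overlap.

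The members varied from rat to rat in different ways. Over the 8 rats, 34 of the 45 pairs of members had a positive correlation of log2(CPM + 0.5), with a median Pearson's r of 0.17 and a range from −0.57 to 0.89. The lowest r was that of *Fbn2* with *Mfap4*. Of the 36 pairs without *Mfap4*, whose reads were too few to test, 29 were positive. Their median r was 0.32 and their range −0.30 to 0.89. Shares over all pairs of genes are not given here. None of the 45 had an adjusted p under 0.05 by the exact permutation test, and 3 had an unadjusted p under 0.05. The closest pair was *Efemp2* and *Emilin1* (r = 0.892, exact permutation p = 0.0032, adjusted p = 0.144; Spearman's rho = 0.833, exact permutation p = 0.0154, adjusted p = 0.628), with r = 0.853 without the 2 rats farthest from the median of *Efemp2*. The other pairs were *Fbln1* with *Efemp2* (r = 0.833, rho = 0.69) and *Fbn1* with *Mfap5* (r = 0.712, rho = 0.452), whose adjusted exact permutation p values were 0.211 and 0.591 for r and 0.781 and 0.86 for rho.

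Against the scores of 3 marker lists (30 relations), 5 relations had an unadjusted exact permutation p under 0.05. After adjustment 2 did, both with the tenocyte score. The share of all genes tested with such a relation to a score was not computed. Whether these relations are particular to the members is therefore not known. The groups were pooled here and in the pairs above, so differences between groups and between rats cannot be told apart in r. *Fbln1* had r = 0.722 with the tenocyte score (exact permutation p = 0.0421, adjusted p = 0.253), or 0.358 without 12 h p.r. replicate 3 and NC replicate 4. *Efemp2* had r = 0.918 (exact permutation p = 0.00193, adjusted p = 0.0305) and rho = 0.833 (exact permutation p = 0.0154, adjusted p = 0.231), and *Emilin1* had r = 0.91 (exact permutation p = 0.00203, adjusted p = 0.0305) and rho = 0.929 (exact permutation p = 0.00223, adjusted p = 0.067). Without 12 h p.r. replicate 3 and NC replicate 4, r was 0.724 for *Efemp2* and 0.874 for *Emilin1*. The tenocyte score itself was 8.61 in 12 h p.r. replicate 3 and 9.72 to 9.86 in the other running rats, against 8.87 to 9.52 in the NC rats. *Eln*, *Fbn1*, and *Fbln5* had r of 0.12, 0.29, and −0.14 with this score, and of 0.51, −0.42, and −0.48 with the smooth muscle score. *Fbln1* and *Mfap5* had the most negative correlations with the smooth muscle score, with r of −0.844 and −0.821, adjusted exact permutation p of 0.0935 and 0.144, and rho of −0.643 and −0.69 (adjusted exact permutation p = 0.481 for both). Without 12 h p.r. replicate 3 and NC replicate 1, these r were −0.677 and −0.367. Without the 2 rats farthest from the median of each score, r was 0.393, 0.007, and −0.666 with the tenocyte score and 0.783, 0.523, and 0.122 with the smooth muscle score, so the sign for *Fbn1* and *Fbln5* with the smooth muscle score turned. For the 6 relations of *Eln*, *Fbn1*, and *Fbln5* the adjusted exact permutation p values were 0.625 or more for r and 0.481 or more for rho.

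**Figure D4:**
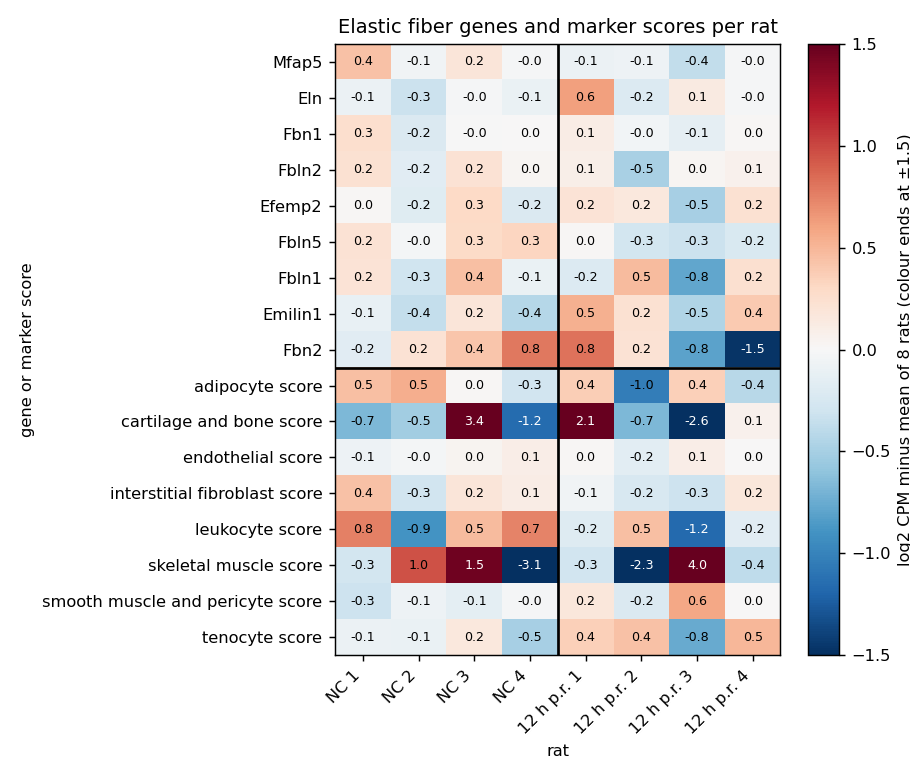
Log2 CPM of the 9 genes tested and mean log2 CPM of 8 marker lists in each rat, each as the difference from its mean over the 8 rats, with colors that end at ±1.5 and the value printed in each cell. In the column of 12 h p.r. replicate 3 the skeletal muscle score is 4.0 above the mean and the tenocyte score 0.8 below it, beside low *Fbln1*, *Efemp2*, and *Emilin1*.

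The genes most like *Eln* across the rats, with members left out, were *Irgm*, *Ddx58*, *Stard5*, *G6pc3*, and *Rnf114*, with Pearson's r from 0.936 to 0.947 on log2(CPM + 0.5) over 8 rats. These are the highest of 13928 genes compared, 30 of which had r over 0.9, so they carry no p value. Without 12 h p.r. replicate 1 and NC replicate 2, r was 0.904 for *G6pc3* and between 0.441 and 0.497 for the other 4, so the likeness of those 4 rests on these rats. The genes most like *Fbn1* were *Uchl3*, *Rars2*, *Snai2*, *Col17a1*, and *Fadd* (r from 0.907 to 0.942, with 6 genes over 0.9), and without NC replicates 1 and 2 their r ran from 0.674 to 0.94.

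Other genes of elastic fiber assembly and turnover were taken as 4 lists. The microfibril partners include latent TGF-beta binding proteins, further fibulins and emilins, and ADAMTS-like proteins. Of these, 18 were tested, and 0 had an unadjusted p under 0.05 by edgeR, with 4 above and 14 below 0. Their median log2 fold change was −0.15. Of all 13937 genes tested, 9.51% had such a p, 6380 were below 0, and the median was 0.02. The list entry *Thsd4* was not analysed here. The most abundant partners by FPKM were *Ltbp4*, which guides fibulin-5 and elastin onto microfibrils, and *Mfap2*, the relative of *Mfap5*. *Ltbp4* had a log2 fold change of 0.09 (SE 0.14, edgeR adjusted p = 0.87). *Mfap2* had one of −0.27 (SE 0.22, edgeR adjusted p = 0.719), or −0.12 without NC replicate 3 and −0.42 without NC replicate 2.

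Of the 5 lysyl oxidase genes, whose enzymes cross-link elastin and collagen, 4 were above 0 and 1 below, with a median of 0.45, and 1 had an unadjusted p under 0.05 in the higher direction, where 5.44% of all genes did. That gene, *Loxl4*, was at 41.0, 53.2, 24.2, and 46.5 CPM after running and at 17.6, 20.7, 41.0, and 17.4 CPM at rest. The running rats were above 3 of the 4 NC rats, and NC replicate 3 lay among them. Its log2 fold change was 0.76 (SE 0.33, unadjusted p = 0.0432, edgeR adjusted p = 0.507). Without 1 rat at a time it ran from 0.62 (unadjusted p = 0.112 by edgeR, without 12 h p.r. replicate 2) to 1.15 (unadjusted p = 0.00188 by edgeR, without NC replicate 3), and its p was above 0.05 in 6 of the 8 fits. *Loxl2* had a log2 fold change of 0.45 (SE 0.21, edgeR adjusted p = 0.531) and *Lox*, the most abundant, one of 0.24 (SE 0.45, edgeR adjusted p = 0.895).

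Of the 8 elastin-degrading proteases 6 were tested, with 1 above and 5 below 0 and a median of −0.36. The gelatinase gene *Mmp2* was at 561, 611, 370, and 514 CPM after running and at 876, 487, 946, and 942 CPM at rest, so that NC replicate 2 lay among the running rats and the other NC rats lay above them. It was the single list member with an unadjusted p under 0.05, as were 4.08% of all genes in the lower direction (log2 fold change −0.66, SE 0.24, unadjusted p = 0.0223, edgeR adjusted p = 0.464). Without NC replicate 1, 3, or 4 its unadjusted p by edgeR was 0.0512, 0.0577, and 0.0579. Without NC replicate 2 the log2 fold change of *Mmp2* was −0.84 (unadjusted p = 0.00179 by edgeR). *Ctsl*, the lysosomal cathepsin L gene, had a log2 fold change of −0.27 (SE 0.24, edgeR adjusted p = 0.749). It was −0.15 without NC replicate 1 and −0.43 without NC replicate 2. Of the 8 receptor genes 0 had an unadjusted p under 0.05 by edgeR, as 9.51% of all genes tested did, and their median was −0.06. The most abundant, *Itgb1* and *Itgb5*, had log2 fold changes of −0.10 (SE 0.12) and 0.13 (SE 0.21). In all 4 lists 0 genes had an edgeR adjusted p under 0.05.

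**Figure D5:**
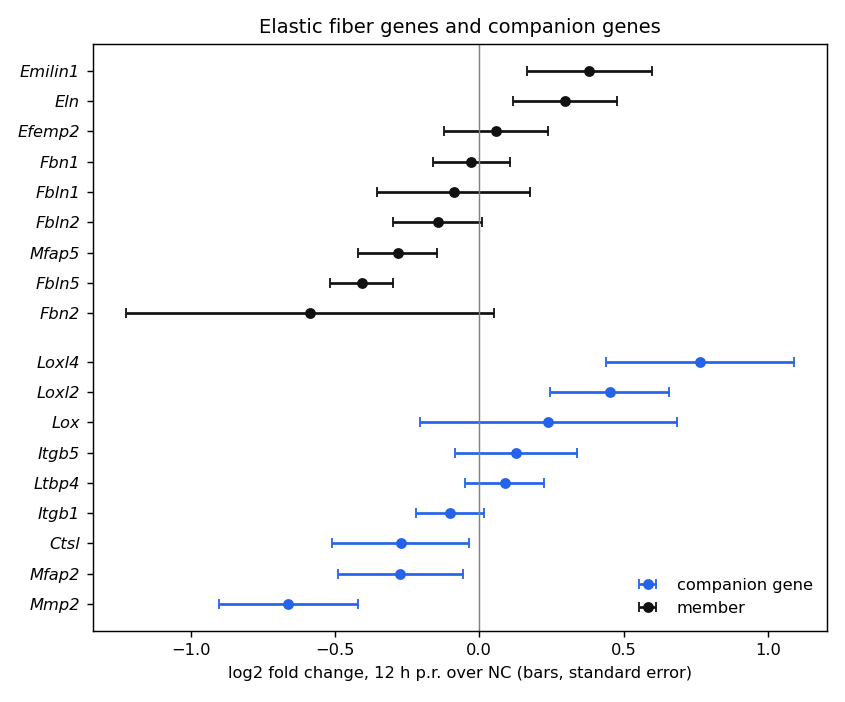
Log2 fold change of 12 h p.r. over NC with its standard error for the 9 members tested (black) and 9 companion genes (blue), from the edgeR fit across all genes. The values of members run from −0.59 for *Fbn2*, with the widest bar, to 0.38 for *Emilin1*, and *Fbln5* at −0.41 has the narrowest bar of the members.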

How the data were processed

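The right Achilles tendons of 8 SD rats were sequenced as stranded polyadenylated mRNA libraries. The submitters' processing notes name the build Rnor_6.0, HISAT2 2.1.0, and featureCounts 1.6.3. The deposited counts, made by the authors for each Ensembl gene, are raw whole numbers. Whether the counting used the strand, and how reads matching several genes were treated, is not given in the sources used here. Within each of 12615 genes with at least 10 reads in every rat, the deposited FPKM values were proportional over the rats to scaled counts. The scaling was the count over a size factor of each library as DESeq2 computes it. The gene lengths by which FPKM divides were not checked. The deposited table of the authors' own comparison (fold changes and p-values, made with DESeq2 1.30.1) was not used.

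Counts were filtered with filterByExpr of edgeR 4.0.16 (13937 genes kept), scaled by TMM, and tested with the quasi-likelihood functions glmQLFit and glmQLFTest. P values were adjusted by Benjamini-Hochberg over the full set of tested genes. Standard errors and 95% intervals of fold changes came from the quasi-likelihood F statistic and its degrees of freedom. Single values were tested with exact permutation over all 70 splits of the rats, 2-sided, on log2(CPM + 0.5), or on log2(FPKM + 0.1) for ratios. Marker scores are means of log2 CPM over a list. Alternatives used DESeq2 1.42.0 and limma 3.58.1 in R 4.3.3. The scripts were tested on simulated data. Beside the 10 members, the text names, from each companion list, the genes with an unadjusted p under 0.05 and the 2 with the highest mean FPKM, and the 5 genes most correlated with *Eln* and with *Fbn1*. The members and lists were chosen with earlier results of these data known. Of the listed symbols, 4 matched no gene of the table (*Thsd4*, *Myh2*, *Myh4*, and *Pecam1*) and were not analysed here. The replicate numbers 1 to 4 name different rats in each group. Libraries of a group differed far beyond sampling noise, so none was treated as a duplicate. No amino acid sequences were used here.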

Additional observations from a re-analysis of the deposited data

Results flagged for a closer look

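A gap test (Dixon, 95% critical value) was applied to the CPM of the 10 members and to the log2 ratios other than *Mfap4*/*Fbn1*, separately for running and NC rats. It singled out an extreme value in 3 of 34 sets of 4 rats, while about 1.7 (1 in 20) would be singled out by chance. In the running group, *Fbln2* was at 137 CPM in replicate 2, against 196 to 204 CPM in the other running rats. *Efemp2* was at 43.1 CPM in 12 h p.r. replicate 3, against 68.0 to 71.6 CPM in the other running rats. This is the rat with the highest skeletal muscle and the lowest tenocyte markers. In the NC group, the log2 ratio of *Fbln5* to *Eln* was −2.34 in replicate 4, against −2.46 to −2.45 in the other NC rats, which lay so close together that a small distance stood out.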

How the results depend on the processing

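The fold changes and the counts of genes were computed again under 9 alternatives with all rats, without each rat in turn, and under 2 alternatives chosen after seeing the data (without 12 h p.r. replicate 3 and NC replicate 3, and with the smooth muscle score as a covariate). Ratios were computed again with another pseudocount and without each rat, and the order of levels with 2 other summaries and in the running rats alone, where 2 members changed places. Correlations were computed again only without the 2 farthest rats. The log2 fold changes of *Eln*, *Fbn2*, *Fbln2*, *Fbln5*, *Mfap5*, and *Emilin1* kept their sign in every one of these, and no member had an adjusted p under 0.05 in any. With the unadjusted p in place of the adjusted, 1 member passed. At that threshold 2 members passed with DESeq2 (*Fbln5* and *Mfap5*, with 9.28% of all genes tested), 3 without both rats (*Efemp2*, *Emilin1*, and *Fbln5*, with 10.8%), 2 with the smooth muscle score (*Emilin1* and *Fbln5*, with 9.13%), and 1 to 2 without each rat in turn (6.28 to 11.1%). Of the rats left out together, 12 h p.r. replicate 3 had the lowest *Efemp2* and *Emilin1* of the running rats (43.1 and 28.9 CPM). NC replicate 3 had the highest of the NC rats (75.1 and 45.2 CPM). The rat with the highest *Emilin1*, 12 h p.r. replicate 1 at 58.1 CPM, was kept in that fit. The median log2 fold change of the members ran from −0.20 to 0.05. The cause of these shifts was not tested.

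The number of genes of all kinds with an adjusted p under 0.05 was 1 with edgeR, 95 with DESeq2, 3 with limma on log2(FPKM + 0.1), and 0 with limma on log2(FPKM + 1), with the skeletal muscle score, with the smooth muscle score, and without both rats. It was 0 in each fit without 1 rat (0 to 0), where 879 (without NC replicate 4) to 1580 genes had an unadjusted p under 0.05, against 1326 with all rats. Without both rats, *Fbn1* was at 0.0047 and *Fbln1* at 0.24, and with the smooth muscle score they were at 0.0496 and 0.29. Without 1 rat at a time, the log2 fold changes ran from −0.10 to 0.0602 for *Fbn1*, from −0.29 to 0.10 for *Fbln1*, from −0.0096 to 0.20 for *Efemp2*, from −0.0041 to 0.15 for *Ltbp4*, and from −0.10 to 0.54 for *Lox*. The ratio differences ran from −0.29 to 0.30 for *Fbln2*/*Fbln1*, from −0.38 to 0.045 for *Mfap4*/*Fbn1*, and from −0.046 to 0.30 for *Emilin1*/*Eln*. With a pseudocount of 1 FPKM that of *Mfap4*/*Fbn1* was 0.002 and that of *Fbn2*/*Fbn1* was −0.07.

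Rats with the same replicate number had correlations of their deviations of 0.07, −0.19, 0.12, and 0.08. Those of rats with unlike numbers ran from −0.29 to 0.31. These values give no sign of a pairing by number, but so few of them cannot exclude one, and the labels name none. With the replicate block, 0 genes had an adjusted p under 0.05, 1 member had an unadjusted p under 0.05, and *Fbln5* had a log2 fold change of −0.41 (unadjusted p = 0.00994 by edgeR). *Fbn2* and *Mfap4* had at most 33 and 3 reads per rat, which limits the precision of their values.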
